A study of Mus musculus with 30 samples.

Results

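The nuclear genes of oxidative phosphorylation were described by 81 of the 14225 transcripts with TPM in CD11b+ microglia, each for a different gene. They were chosen by symbol alone. The rule took every row that begins with Nduf, Uqcr, Atp5 or with Cox and a digit from 4 to 8. It also took Sdha, Sdhb, Sdhc, Sdhd, Cyc1 and Cycs. No measured value is part of the rule, but it was chosen with earlier results of these data known. RNA was measured in 30 libraries of magnetic bead-isolated cells of the whole brain of C57BL/6J mice, 3 for each of 10 groups. All dams had been injected in pregnancy, with saline (Saline) or with poly(I:C), a mimic of viral RNA (maternal immune activation, MIA), and their offspring were taken at E17, P7, P20 and P60. At P60, Saline and MIA offspring had received control chow (Saline + CTRL and MIA + CTRL) or chow with PLX5622, an inhibitor of the CSF1 receptor on which microglia depend for survival, followed by control chow while microglia repopulated the brain (Saline + MG-REP and MIA + MG-REP). Each E17 library came from a whole litter, each P7 library from a pool of 3 brains, and the older ones from a single brain each.

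Oxidative phosphorylation is the last stage of respiration in the inner mitochondrial membrane. Complexes I and II pass electrons from NADH and succinate to ubiquinone, complex III passes them to cytochrome c and complex IV to oxygen, and the ATP synthase uses the proton gradient that complexes I, III and IV build up. A few core subunits are encoded by mitochondrial DNA and the rest by nuclear genes, many of which are described here. Microglia can draw on respiration as well as on glycolysis, and their use of each is known to shift with activation.

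Of the 81 transcripts, 30 encode subunits of complex I (4 of its core and 26 accessory ones), 7 its assembly factors, 4 complex II, 9 complex III, 1 cytochrome c, 14 complex IV and 13 the ATP synthase. The other 3 match the symbol rule without encoding a subunit, namely Ndufa4l2, Atp5s and Atp5sl. None was at 0 in any library. Among genes of these complexes, their tissue isoforms and their relatives, at least 11 have no value here and were not analysed (Ndufs1, Ndufs5, Ndufs6, Ndufs8, Ndufv2, Ndufa7, Atp5f1, Atp5g3, Cox6b2, Cox7a2l and Cox8b). This list was drawn up by hand and may not be complete.

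The promoters of 5 genes are shown because the comparisons between ages and after repopulation turn on them. Cox5a (complex IV), Atp5e (ATP synthase) and Sdhd (complex II) were lower at P20 than at P7 and higher in Saline + MG-REP than in Saline + CTRL, while Cox6a1 and Cox8a (both complex IV) were not. The sequences are those of RefSeq on GRCm38.p6, from 250 bases before to 50 bases after a start that RefSeq gives, written 5′ to 3′ on the strand of the gene. Capitals mark matches on either strand to the motif letters GCGCANGCG (bound by NRF1, a regulator of respiratory genes), CCGGAAG (ETS factors such as GABPA), AAGATGGCG (YY1) and GGGCGG (Sp1).
Cox5a (chr9:57520982-57521281, plus strand): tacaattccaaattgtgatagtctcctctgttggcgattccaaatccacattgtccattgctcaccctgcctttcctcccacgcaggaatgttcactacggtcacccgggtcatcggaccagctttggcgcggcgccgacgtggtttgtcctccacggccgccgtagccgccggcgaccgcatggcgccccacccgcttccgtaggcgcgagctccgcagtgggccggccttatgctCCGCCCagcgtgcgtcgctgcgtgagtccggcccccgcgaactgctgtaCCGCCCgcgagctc
Atp5e (chr2:174464052-174464351, minus strand): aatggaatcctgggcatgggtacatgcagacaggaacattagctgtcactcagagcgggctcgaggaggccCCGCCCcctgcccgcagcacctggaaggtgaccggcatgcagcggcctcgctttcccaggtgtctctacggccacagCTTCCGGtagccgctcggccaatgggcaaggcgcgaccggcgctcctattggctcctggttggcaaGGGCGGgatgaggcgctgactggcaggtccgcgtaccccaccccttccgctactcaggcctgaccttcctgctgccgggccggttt
Sdhd (chr9:50603800-50604099, minus strand): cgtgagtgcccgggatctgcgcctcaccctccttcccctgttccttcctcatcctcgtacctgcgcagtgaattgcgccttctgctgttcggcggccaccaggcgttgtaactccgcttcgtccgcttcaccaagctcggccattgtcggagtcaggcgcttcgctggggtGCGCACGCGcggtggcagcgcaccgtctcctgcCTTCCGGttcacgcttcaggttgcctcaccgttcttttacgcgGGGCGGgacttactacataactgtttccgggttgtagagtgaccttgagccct
Cox6a1 (chr5:115348909-115349208, minus strand): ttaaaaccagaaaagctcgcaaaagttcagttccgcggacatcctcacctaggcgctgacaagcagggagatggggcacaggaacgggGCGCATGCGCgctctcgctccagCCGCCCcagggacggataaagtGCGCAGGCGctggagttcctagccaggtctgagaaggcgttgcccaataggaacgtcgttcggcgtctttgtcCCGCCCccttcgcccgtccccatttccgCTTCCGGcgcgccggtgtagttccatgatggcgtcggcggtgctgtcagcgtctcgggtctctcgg
Cox8a (chr19:7217567-7217866, minus strand): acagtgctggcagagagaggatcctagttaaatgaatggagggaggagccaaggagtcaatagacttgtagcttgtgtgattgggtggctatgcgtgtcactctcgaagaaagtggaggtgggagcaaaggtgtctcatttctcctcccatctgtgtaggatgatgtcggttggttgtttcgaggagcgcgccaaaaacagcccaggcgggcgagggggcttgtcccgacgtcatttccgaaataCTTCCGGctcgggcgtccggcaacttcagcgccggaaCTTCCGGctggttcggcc
The start used for Cox5a lies inside the annotated span of the gene, which begins at base 57517328, and the other 4 starts are at the 5′ ends of their genes. The window of Cox5a held 2 Sp1 matches and that of Atp5e 1 ETS and 2 Sp1 matches. Sdhd had 1 match each for NRF1, ETS and Sp1. Cox6a1 had 3 NRF1 matches, of which 2 overlap on opposite strands, besides 2 Sp1 and 1 ETS, and Cox8a had 2 ETS matches. Promoter windows were found for 66 of the 81 genes (71 windows). The NRF1 letters were present in 29.6% of them, against 11.5% of the 12883 windows of genes with TPM in these data and 6.25% of all 32851 windows. The YY1 letters were present in 11.3%, 2.61% and 1.4%, the ETS letters in 22.5%, 15.6% and 8.86%, and the Sp1 letters in 43.7%, 60.1% and 35.7%. A match is a description of these letters in this window and not a binding site.

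TPM are by definition scaled for transcript length and library, which allows a rough comparison of levels between genes. The lengths used are not given in the sources used here. Atp5b, the catalytic beta subunit of the ATP synthase, had the highest mean over the 30 libraries, 1250.2 TPM, with libraries from 765 to 1671 TPM. It was followed by Cox6a1 with a mean of 1072 TPM and Cox8a with 957 TPM, both small subunits of complex IV. Atp5a1, the alpha subunit of the ATP synthase, had 866 TPM and Atp5e, its epsilon subunit, 775 TPM. The 5 lowest means were those of Atp5c1 with 1.67 TPM, Cycs with 2.59 TPM, Atp5j with 3.47 TPM, Atp5g2 with 3.57 TPM and Cox4i1 with 3.68 TPM. On a transcript of 1 kb a read stood for 0.211 to 0.353 TPM, so the lowest transcripts rest on few reads. Reads were counted without strand and the handling of reads that match near-identical copies is not stated in the sources used here, so levels of genes with copies elsewhere in the genome, such as Atp5c1, Cycs, Atp5g2 and Cox4i1, are uncertain, and the wide range within a complex was not tested against this. Of the 24 transcripts whose gene has 2 or more curated RefSeq transcripts, 7 had a mean under 20 TPM, against 9 of the 57 with 1.

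**Figure D1:**
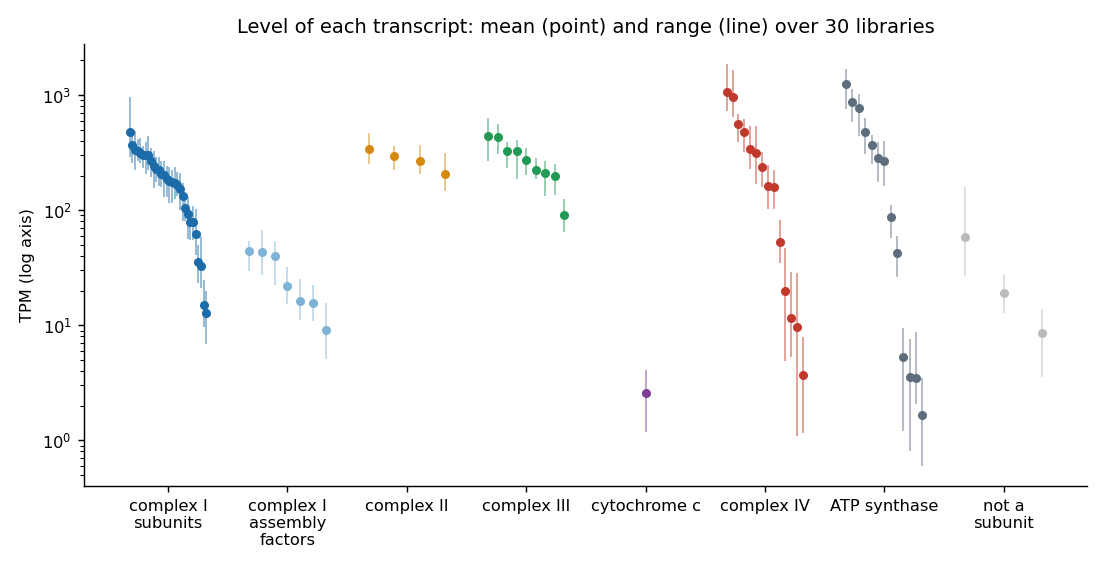
Level of each of the 81 transcripts by complex. The point is the mean TPM (log axis) and the line the range over 30 libraries. Atp5b had the highest mean, 1250.2 TPM, and Atp5c1, whose level is uncertain, the lowest, 1.67 TPM.

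Tissue isoforms known from other organs were present at low levels. Cox6a2, the heart and muscle form of Cox6a, ranged over the 30 libraries from 1.09 to 28.2 TPM, where Cox6a1, the form of most other tissues, ranged from 733 to 1861 TPM. Cox7a1, likewise a muscle form, ranged from 5.26 to 28.7 TPM, and Cox7a2, its counterpart of most tissues, from 160.1 to 321 TPM. Cox4i2, which is known from lung and from pericytes, ranged from 4.93 to 47.0 TPM, and its counterpart Cox4i1 from 1.15 to 7.95 TPM. Because the level of Cox4i1 is uncertain, as given above, these values do not show which of the pair is the higher. Ndufa4l2, a relative of the complex IV subunit Ndufa4 that is known to respond to hypoxia and to be expressed in pericytes, ranged from 26.9 to 160.2 TPM.

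The 81 transcripts together made up 1.96% ± 0.0519 (SD, n = 3) of the TPM of a library in E17 Saline and 1.88% ± 0.0818 (SD, n = 3) in P7 Saline. In P20 Saline they made up 1.71% ± 0.0825 (SD, n = 3), and the highest P20 library, at 1.81%, lay just above the lowest P7 library, at 1.79%. In MIA offspring the shares were 2.03% ± 0.106 (SD, n = 3) at E17, 1.91% ± 0.0692 (SD, n = 3) at P7 and 1.57% ± 0.128 (SD, n = 3) at P20. The P20 MIA libraries all lay under the P7 MIA libraries. At P60 the Saline + CTRL libraries held 1.67%, 2.07% and 1.29%, and the MIA + CTRL libraries 2.30%, 1.79% and 1.66%. The Saline + MG-REP libraries held 2.14%, 2.03% and 2.19%, and the MIA + MG-REP libraries 1.78%, 1.54% and 1.94%. The CTRL libraries of P60 were thus spread more widely than those of the other ages. In bulk RNA, fewer cells of a type and less RNA per cell cannot be told apart.

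**Figure D2:**
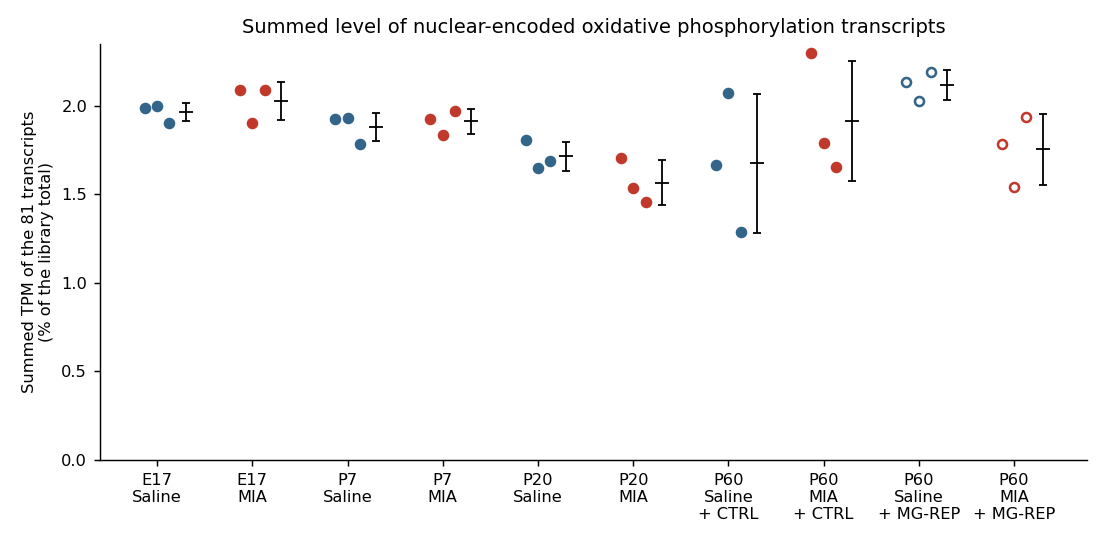
Summed TPM of the 81 transcripts as percent of the TPM of a library, by group. Dots are libraries (blue Saline, red MIA, open MG-REP) and bars the mean ± SD (n = 3). P20 Saline (1.71% ± 0.0825) lies under E17 Saline (1.96% ± 0.0519), and the Saline + CTRL dots run from 1.29% to 2.07%.

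In the CTRL groups of P60 and in MIA + MG-REP, most of the genes were highest in the same library and lowest in another. In Saline + CTRL, 68 of the 81 transcripts were highest in library 2 and 72 were lowest in library 3. In MIA + CTRL, 75 were highest in library 1 and 63 lowest in library 3, and in MIA + MG-REP 58 were highest in library 3 and 70 lowest in library 2. Other groups varied. E17 MIA had 62 lowest in library 2 and P20 MIA 56 highest in library 1. In E17 Saline, libraries 1, 2 and 3 were highest for 30, 38 and 13 transcripts, and in Saline + MG-REP for 39, 9 and 33. As a description over the 30 libraries, the deviations of the 65 transcripts of at least 20 TPM from their group means had a median Pearson correlation of 0.62 over 2080 pairs, of which 98% were positive. These points share library, depth and scaling, and no value over all transcripts is set beside this correlation. Nor is a share of all transcripts set beside the counts of highest and lowest libraries. Those counts are therefore not read as particular to the 81. The factors of median-ratio scaling in libraries 1, 2 and 3 were 1.02, 1.01 and 0.905 in Saline + CTRL. They were 1.10, 0.974 and 0.951 in MIA + CTRL, and 0.992, 0.932 and 0.960 in MIA + MG-REP. Markers of other cells moved with the 81 transcripts in Saline + CTRL. The 6 astrocyte markers summed to 501, 943 and 272 TPM in Saline + CTRL libraries 1, 2 and 3, 5 oligodendrocyte markers to 495, 1198 and 310.4 TPM, and the 7 microglial markers, the other way round, to 41752, 35292 and 51118 TPM. The part of these cells in the spread was not tested.

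The 7 microglial markers all had values, and summed to between 16294 and 51118 TPM in the 30 libraries, above the sum of every other marker list in the same library. About 8050000 to 12920000 reads stood behind a library, as estimated from the steps between low TPM. Xist, the RNA that coats the inactive X chromosome, was over 50 TPM in 1 of the 3 libraries in each CTRL group at P60 and in all 3 libraries of each P20 and MG-REP group, so the libraries compared at P60 differ in the sex of the mice. Saline + MG-REP library 1 stood apart, with 1218 TPM over 9 mitotic markers against 473 and 422 TPM in libraries 2 and 3, and library 2 of that group had 4391 TPM of neutrophil and monocyte markers against 86.4 and 315 TPM in libraries 1 and 3. Counts are given below without each of these libraries where that changed them by more than 1.5 times.

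The steps from E17 to P7, P20 and P60 in Saline offspring address how these genes change as microglia mature. Between E17 and P7, 0 of the 81 transcripts passed an adjusted p of 0.05 (limma, Benjamini-Hochberg over all transcripts), where 4.32% of all transcripts did. At an unadjusted p under 0.05 there were 3 higher and 1 lower. For unadjusted counts, here and below, no share over all transcripts is given, so they are not read as a shift of the 81. Between P7 and P20, 23 of the 81 were lower and 5 higher. The background was 20.1% of all transcripts lower and 16.1% higher. The median log2 fold change was -0.20 over the 81 transcripts and -0.02 over all transcripts. With the replicate number as a block, 3 were higher and 21 lower, and Cox6a1, Cox8a, Atp5b and Uqcrfs1, described below, did not pass (adjusted p 0.0621 to 0.0861). Without P20 Saline library 2 the lower count was 14, and without P7 Saline library 2 it was 15. The higher count was 1 without P7 Saline library 1 or without P20 Saline library 1, 2 without P20 Saline library 3 and 3 without P7 Saline library 3. Between P20 and Saline + CTRL at P60, 0 passed the adjusted test against a background of 3.51%, with 2 higher and 2 lower at an unadjusted p under 0.05.

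Falls between P7 and P20 were found in each of the 5 complexes, and 1 further fall was that of Ndufa4l2. Since 20.1% of all transcripts were lower over this step, a fall in each complex is not by itself particular to these genes. The share in complex IV was below that background. They comprised 8 of the 30 complex I subunits, 3 of the 4 complex II subunits, 3 of the 9 of complex III, 2 of the 14 of complex IV and 6 of the 13 of the ATP synthase. Of the 7 assembly factors of complex I, 2 rose and 0 fell, and in complex IV 3 rose.

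In complex II, Sdhd, which anchors the enzyme in the membrane, had 314, 263 and 245 TPM in the P7 Saline libraries and 164, 161 and 150.0 TPM in the P20 Saline libraries. The groups did not overlap, and Sdhd fell by 0.78 on the log2 scale (SE 0.11, limma adjusted p = 5.5e-06, n = 3 per group). Sdhb, the iron-sulfur subunit, fell by 0.40 (adjusted p = 0.000597, limma), and Sdhc, the other membrane anchor, fell by 0.37 (adjusted p = 0.00727, limma). Sdha, the flavoprotein that oxidises succinate, had 253, 322 and 311 TPM at P7 and 340.4, 314 and 304 TPM at P20. These groups overlapped, and the 95% interval of its log2 fold change ran from -0.10 to 0.34 (limma adjusted p = 0.405). The difference between Sdha and the other 3 subunits was not tested.

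In the ATP synthase, Atp5a1 had 1090.5, 1037 and 967 TPM in P7 Saline and 731, 661 and 712 TPM in P20 Saline. It fell by 0.56 on the log2 scale without overlap (SE 0.11, adjusted p = 0.000368, limma). Atp5b fell by 0.36 (adjusted p = 0.0481), and that call was lost when any of the P7 libraries or P20 libraries 1 and 2 was left out, with adjusted p from 0.0566 to 0.180. Atp5e fell by 0.51 (adjusted p = 0.000947, limma) and Atp5o, a peripheral stalk subunit, by 0.44 (adjusted p = 0.0174, limma). The call of Atp5o was lost without P7 libraries 1 or 2 or P20 library 3 (adjusted p 0.0546 to 0.0895). The membrane part was represented by Atp5l, which fell by 0.46 (adjusted p = 0.0207, limma).

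In complex III, Uqcrc1, a core protein, had 352, 383 and 344 TPM in P7 Saline and 292, 267 and 281 TPM in P20 Saline, and fell by 0.36 on the log2 scale (adjusted p = 0.00816, limma). Uqcrfs1, the Rieske iron-sulfur protein that hands electrons to cytochrome c1, fell by 0.35 (adjusted p = 0.0334, limma), a call that was lost without P7 library 1 or without any of the P20 libraries (adjusted p 0.0519 to 0.145). Among complex I subunits, Ndufv3, a small accessory subunit, fell by 0.70 (SE 0.16, adjusted p = 0.00136, limma). Its values were 59.0, 40.05 and 35.1 TPM at P7 and 26.1, 24.2 and 29.1 TPM at P20, without overlap. Ndufs3, of the core, fell by 0.38 (adjusted p = 0.0068, limma).

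Complex IV had members on either side. Cox5a, a matrix-side subunit, had 330.2, 352 and 354 TPM at P7 and 270.5, 224 and 252 TPM at P20 and fell by 0.48 (adjusted p = 0.0181, limma), a call that was lost without P20 Saline library 2 (adjusted p = 0.0813). Cox6a1 went the other way, with 789, 878 and 779 TPM at P7 and 1314, 1138 and 1259 TPM at P20. It rose by 0.60 on the log2 scale without overlap (SE 0.21, adjusted p = 0.0284, limma). Cox8a rose by 0.59 (SE 0.22, adjusted p = 0.0406, limma), from 800.03, 725 and 648 TPM to 1182, 1037 and 1046 TPM. Neither rise kept its call in every fit. That of Cox6a1 was lost without P7 libraries 1 or 3 or P20 libraries 1 or 3 (adjusted p 0.0629 to 0.0841), and that of Cox8a without any of the 6 libraries (adjusted p 0.0514 to 0.122).

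Of the 4 rarer isoforms and relatives, 3 passed. Cox7a1 did not, with a log2 value of -0.44 (adjusted p = 0.336, limma). Cox6a2 rose by 1.28 on the log2 scale (SE 0.37, adjusted p = 0.00882, limma), from 4.78, 7.88 and 6.30 TPM at P7 to 10.98, 14.4 and 28.2 TPM at P20, and without P20 library 3 its adjusted p was 0.0707. Cox4i2 fell by 1.08 (adjusted p = 0.0403, limma), from 23.1, 34.1 and 16.8 TPM to 11.7, 8.45 and 12.2 TPM, and that call was lost without P7 libraries 1 or 2 or without any P20 library (adjusted p 0.0542 to 0.169). Ndufa4l2 fell by 0.94 (adjusted p = 0.019, limma), with a call lost without P7 library 2 or P20 libraries 2 or 3 (adjusted p 0.0507 to 0.0909). The assembly factors Ndufaf4 and Ndufaf7 rose by 0.63 (adjusted p = 0.0196, limma) and 0.36 (adjusted p = 0.0121, limma). The first lost its call without P7 library 1 or P20 libraries 1 or 3 (adjusted p 0.0688 to 0.101), and the second without P7 library 1 or P20 library 1 (adjusted p 0.0693 and 0.0782).

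Other cells and division moved over the same step. The 9 mitotic markers with values summed to 936 to 1042 TPM in P7 Saline and to 24.8 to 37.7 TPM in P20 Saline, and 5 oligodendrocyte markers to 126 to 226 TPM and 1086 to 2942 TPM. The 4 endothelial markers summed to 1173 to 1288 TPM at P7 and 376 to 686 TPM at P20, and the 4 border macrophage markers to 1676 to 1863 TPM and 544 to 710.2 TPM. Microglial markers went from 22722 to 28393 TPM up to 35998 to 44879 TPM, astrocyte markers from 238 to 386 TPM up to 464 to 905 TPM, and choroid plexus markers from 1287 to 3415 TPM up to 3509 to 7114 TPM. Y-linked transcripts were over 50 TPM in 3 of 3 P7 Saline and 0 of 3 P20 Saline libraries. Their part in the falls and rises was not tested.

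MIA offspring were compared over the same ages. Between E17 and P7, 0 of the 81 transcripts passed (limma, adjusted p), where 2.39% of all transcripts did, with 0 higher and 1 lower at an unadjusted p under 0.05. Between P7 and P20, 34 of the 81 were lower, against a background of 22.5%, and 3 were higher, against 13.1%. The median log2 fold change was -0.32 over the 81 transcripts and -0.09 over all. Under median-ratio scaling 26 were lower and 6 higher. Lower were 15 of the 30 complex I subunits, 3 of the 4 of complex II, 5 of the 9 of complex III, 3 of the 14 of complex IV and 7 of the 13 of the ATP synthase.

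The Saline and MIA comparisons of P20 with P7 share no library. Of the 23 transcripts lower in Saline offspring, 21 were also lower in MIA offspring, which is 91.3% of the first list and 61.8% of the second. Over all transcripts the corresponding shares were 82.8% and 74.0%. Cox6a2 and Ndufaf7 were higher in both. In MIA offspring mitotic markers summed to 943.5 to 1049 TPM at P7 and 31.9 to 41.1 TPM at P20, oligodendrocyte markers to 129 to 247 and 1169.7 to 1758 TPM, and microglial markers to 19749 to 28805 and 43326 to 48585 TPM. Their part was not tested.

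Sdhd had 280.1, 235 and 232 TPM in P7 MIA and 149, 149 and 156 TPM in P20 MIA and fell by 0.71 on the log2 scale (adjusted p = 1.73e-05, limma). Atp5a1 fell by 0.72 (adjusted p = 1.9e-05, limma), from 1041, 998 and 1133 TPM to 672, 612 and 641 TPM. Cox5a fell by 0.84 (SE 0.15, adjusted p = 0.000149, limma), from 366, 353 and 394 TPM to 218, 196 and 204 TPM. In each of the 3 genes the P20 libraries lay under all P7 libraries. Ndufaf2, an assembly factor of complex I, fell by 0.76 (adjusted p = 0.00298, limma) and Cox4i2 by 1.22 (adjusted p = 0.0216, limma). Cox6a2 rose by 1.29 (adjusted p = 0.0083, limma), Atp5sl by 0.78 (adjusted p = 0.0157, limma) and Ndufaf7 by 0.38 (adjusted p = 0.00813, limma). Cox4i2 lost its call without P7 libraries 1 or 3 or P20 libraries 1 or 2, Cox6a2 without P20 library 1 and Atp5sl without P7 library 3 or P20 library 2 (adjusted p 0.0536 to 0.0932 in these fits). Cox6a1 had 820.2, 772 and 823 TPM at P7 and 1325, 1067 and 876 TPM at P20, a log2 difference of 0.42 (adjusted p = 0.13) that passed under median-ratio scaling (adjusted p = 0.0376). For Cox8a the values were 0.44 and adjusted p = 0.126, or 0.0385 under that scaling.

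**Figure D3:**
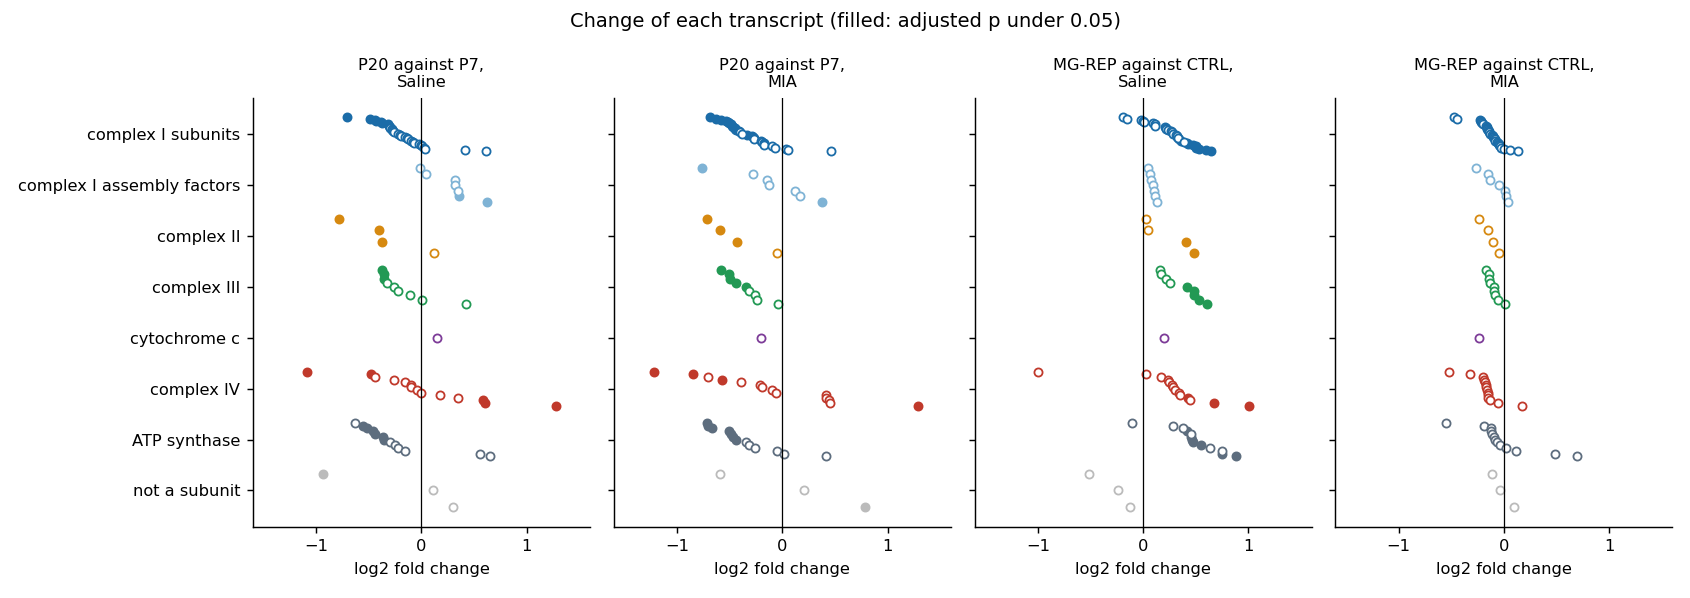
Log2 fold change of each of the 81 transcripts by complex in 4 comparisons. Filled points have an adjusted p under 0.05 (limma), and no point of the MIA MG-REP panel is filled. At P20 against P7, 23 transcripts were lower in Saline and 34 in MIA offspring, and in Saline + MG-REP against Saline + CTRL 28 were higher and 0 lower.

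From E17 to P60 on control chow, 29 of the 81 transcripts were lower in Saline offspring, against a background of 25.4%, and 4 were higher, against 22.1%. The median was -0.23 over the 81 and -0.01 over all transcripts. Under quantile normalization 20 were lower and 8 higher. Without Saline + CTRL library 3, 18 were lower and 10 higher. In MIA offspring 24 were lower, against 28.8%, and 9 higher, against 19.3%. Here the split depended on the scaling, with 13 lower and 13 higher under median-ratio scaling and 14 lower and 16 higher under quantile normalization. Without MIA + CTRL library 3 the lower count was 15, and without MIA + CTRL library 1 the higher count was 5. Mitotic markers summed to 877 to 1025 TPM in E17 Saline and 21.6 to 31.0 TPM in Saline + CTRL, and to 859.8 to 965 TPM in E17 MIA and 18.9 to 25.9 TPM in MIA + CTRL. Oligodendrocyte markers summed to 33.5 to 40.6 TPM in E17 Saline and 310.4 to 1198 TPM in Saline + CTRL, and to 38.0 to 52.3 TPM in E17 MIA and 392.2 to 1083 TPM in MIA + CTRL. Xist and Y-linked transcripts were both over 50 TPM in all E17 libraries, while in each CTRL group at P60 Xist was so in 1 and Y-linked transcripts in 2 of 3 libraries. The part of these differences was not tested.

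The largest falls in Saline offspring were those of Cox5a, by 1.03 on the log2 scale (adjusted p = 7.23e-06, limma), and Atp5e, by 0.84 (adjusted p = 1.41e-06, limma). Cox5a had 441, 442 and 398 TPM at E17 and 203, 265 and 169 TPM in Saline + CTRL. Sdhd fell by 0.79, Ndufb7 by 0.69 and Atp5d, the delta subunit of F1, by 0.68 (limma adjusted p 1.88e-06, 0.000155 and 1.68e-05). The rises were those of Cox6a2 by 1.69, Atp5sl by 1.22, Ndufb9 by 0.85 and Ndufaf7 by 0.54 (limma adjusted p 0.000588, 0.000267, 0.00933 and 0.000236). Ndufb9, an accessory subunit of complex I, had 298, 294 and 298 TPM at E17 and 531, 909 and 318 TPM in Saline + CTRL, and without Saline + CTRL library 2 its adjusted p was 0.116. In MIA offspring Cox5a fell by 0.81 (adjusted p = 0.00013, limma) and Sdhd by 0.67 (adjusted p = 1.86e-05, limma). Atp5g2, which encodes the c ring and rests on few reads, fell by 1.34 (adjusted p = 0.00615, limma). Ndufa4l2 fell by 1.05 (adjusted p = 0.00625, limma), with overlapping groups and an adjusted p of 0.0582 without E17 MIA library 3. Ndufb9 rose there by 1.18 (adjusted p = 0.00061, limma), from 338, 288 and 306 TPM to 956, 669.9 and 548 TPM. Cox8a rose by 0.81 (adjusted p = 0.00424, limma) and Cox6a1 by 0.71 (adjusted p = 0.00717, limma). The rise of Cox6a1 was lost without MIA + CTRL library 1 (adjusted p = 0.0714). Further rises were those of Cox6a2 by 1.45, Cox4i1 by 0.92 and Atp5sl by 0.87 (limma adjusted p 0.00239, 0.0339 and 0.00578). Cox4i1, whose level is uncertain, had 4.17, 2.20 and 2.31 TPM at E17 and 7.95, 5.6 and 5.34 TPM in MIA + CTRL. Its call was lost without E17 MIA libraries 2 or 3 or MIA + CTRL libraries 1 or 2 (adjusted p 0.0522 to 0.121). In Saline offspring the log2 values of these 2 genes were 0.44 for Cox8a (adjusted p = 0.107, limma) and 0.45 for Cox6a1 (adjusted p = 0.0822, limma), and both passed without Saline + CTRL library 3 (adjusted p 0.00996 and 0.0032). The difference between Saline and MIA offspring was not tested for this step.

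The different course of Cox5a and Cox6a1, subunits of the same complex, was also read as the ratio of their TPM within a library, a measure chosen after their values were seen that no scaling of the library can change. The ratio of Cox6a1 to Cox5a was 1.91 ± 0.144 (SD, n = 3) in E17 Saline, 2.36 ± 0.149 (SD, n = 3) in P7 Saline and 4.98 ± 0.111 (SD, n = 3) in P20 Saline. In MIA offspring it was 1.92 ± 0.166, 2.17 ± 0.0763 and 5.27 ± 0.896 (SD, n = 3). At P60 it was 5.38 ± 0.950 in Saline + CTRL, 5.52 ± 0.362 in MIA + CTRL and 5.6 ± 0.358 in MIA + MG-REP (SD, n = 3). In Saline + MG-REP the libraries had 2.14, 3.60 and 4.05, and all of them lay under the libraries of the other P60 groups and of P20.

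In MIA offspring between P20 and P60 on control chow, 6 of the 81 transcripts were higher and 0 lower (limma, adjusted p). The background was 1.03% of all transcripts higher and 1.57% lower. At an unadjusted p under 0.05 there were 32 higher and 1 lower, with no share of all transcripts set beside them. All 6 encode subunits of complex I or II. Ndufa5, an accessory subunit of complex I, had 52.0, 40.6 and 42.2 TPM in P20 MIA and 103, 84.5 and 71.9 TPM in MIA + CTRL and rose by 0.92 on the log2 scale (SE 0.19, adjusted p = 0.00994, limma). Ndufa12 rose by 0.77 (adjusted p = 0.0347), Ndufb10 by 0.56 (adjusted p = 0.028), Ndufb3 by 0.51 (adjusted p = 0.0199), Ndufa13 by 0.47 (adjusted p = 0.041) and Sdha by 0.40 (adjusted p = 0.0462, all limma). With the replicate number as a block 1 of the 6 remained called, Ndufa5, and with only the groups compared the count was 3. The calls also rested on single libraries, since the count was 0 without P20 MIA library 2, P20 MIA library 3 or MIA + CTRL library 1 and 1 without P20 MIA library 1 or MIA + CTRL library 2. MIA + CTRL library 1 had 1145 TPM of astrocyte markers against 694 and 609 TPM in libraries 2 and 3, and 29621 TPM of microglial markers against 42222 and 45056 TPM.

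MIA and Saline offspring of the same age, at P60 those on control chow, addressed what prenatal immune activation leaves in microglia. At E17, P7, P20 and P60, 0 of the 81 transcripts passed the adjusted test, and 0% of all transcripts did (limma). At an unadjusted p under 0.05 there were 0 higher and 0 lower at E17, 2 higher and 0 lower at P7, 0 higher and 3 lower at P20, and 8 higher and 0 lower at P60. No share of all transcripts at that threshold is set beside these counts. The counts of adjusted calls were 0 in every alternative fit.

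Repopulation after PLX5622 was compared with control chow at P60. In Saline offspring, 28 of the 81 transcripts were higher in MG-REP, where 11.9% of all transcripts were higher, and 0 were lower, where 14.9% of all were lower. The median log2 fold change was 0.29 over the 81 and -0.14 over all transcripts. In MIA offspring, 0 of the 81 passed, where 0.555% of all transcripts did, with 0 higher and 2 lower at an unadjusted p under 0.05 (limma), and the median was -0.13 over the 81 and -0.08 over all transcripts. The count in Saline offspring was 44 under median-ratio scaling. It was 14 without Saline + CTRL library 3, with 1 lower. With log2 Xist as a covariate it was 10, with 1 lower, and with only the groups compared it was 6. That last fit has fewer libraries and takes its spread from the compared groups alone.

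The higher transcripts in Saline + MG-REP were 11 of the 30 complex I subunits, all of them accessory, and 0 of the 7 assembly factors. They further comprised 2 of the 4 complex II subunits, 5 of the 9 of complex III, 3 of the 14 of complex IV and 7 of the 13 of the ATP synthase, of which 4 belong to F1.

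Cox5a had 203, 265 and 169 TPM in Saline + CTRL and 536, 360.0 and 383 TPM in Saline + MG-REP. The groups did not overlap, and Cox5a rose by 1.00 on the log2 scale (SE 0.15, adjusted p = 2.12e-05, limma). In MIA offspring it had 314, 230.0 and 204 TPM in CTRL and 222, 199 and 244 TPM in MG-REP, which overlapped (log2 fold change -0.15, adjusted p = 0.978). Its Saline + MG-REP values came near those of E17 Saline, 441, 442 and 398 TPM, a comparison that was not tested.

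Atp5e had 533, 639 and 442 TPM in Saline + CTRL and 1019.9, 940.3 and 979 TPM in Saline + MG-REP, and rose by 0.88 (SE 0.11, adjusted p = 1.59e-06, limma). The MIA + CTRL libraries had 765, 625 and 603 TPM and the MIA + MG-REP libraries 757, 624 and 774 TPM. Repopulated microglia of Saline offspring were thus above every other library at P60 for this gene. Atp5l rose by 0.75 (adjusted p = 0.000557, limma), from 33.1, 37.5 and 26.0 TPM to 54.0, 49.9 and 59.2 TPM. Cox7b, a small subunit of complex IV, rose by 0.67 (adjusted p = 0.000158, limma), from 126, 146 and 102 TPM to 225, 182 and 188 TPM. Ndufa1, an accessory subunit of complex I, rose by 0.65 (adjusted p = 0.000499, limma), from 181, 203 and 130.1 TPM to 263, 266 and 264 TPM.

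**Figure D4:**
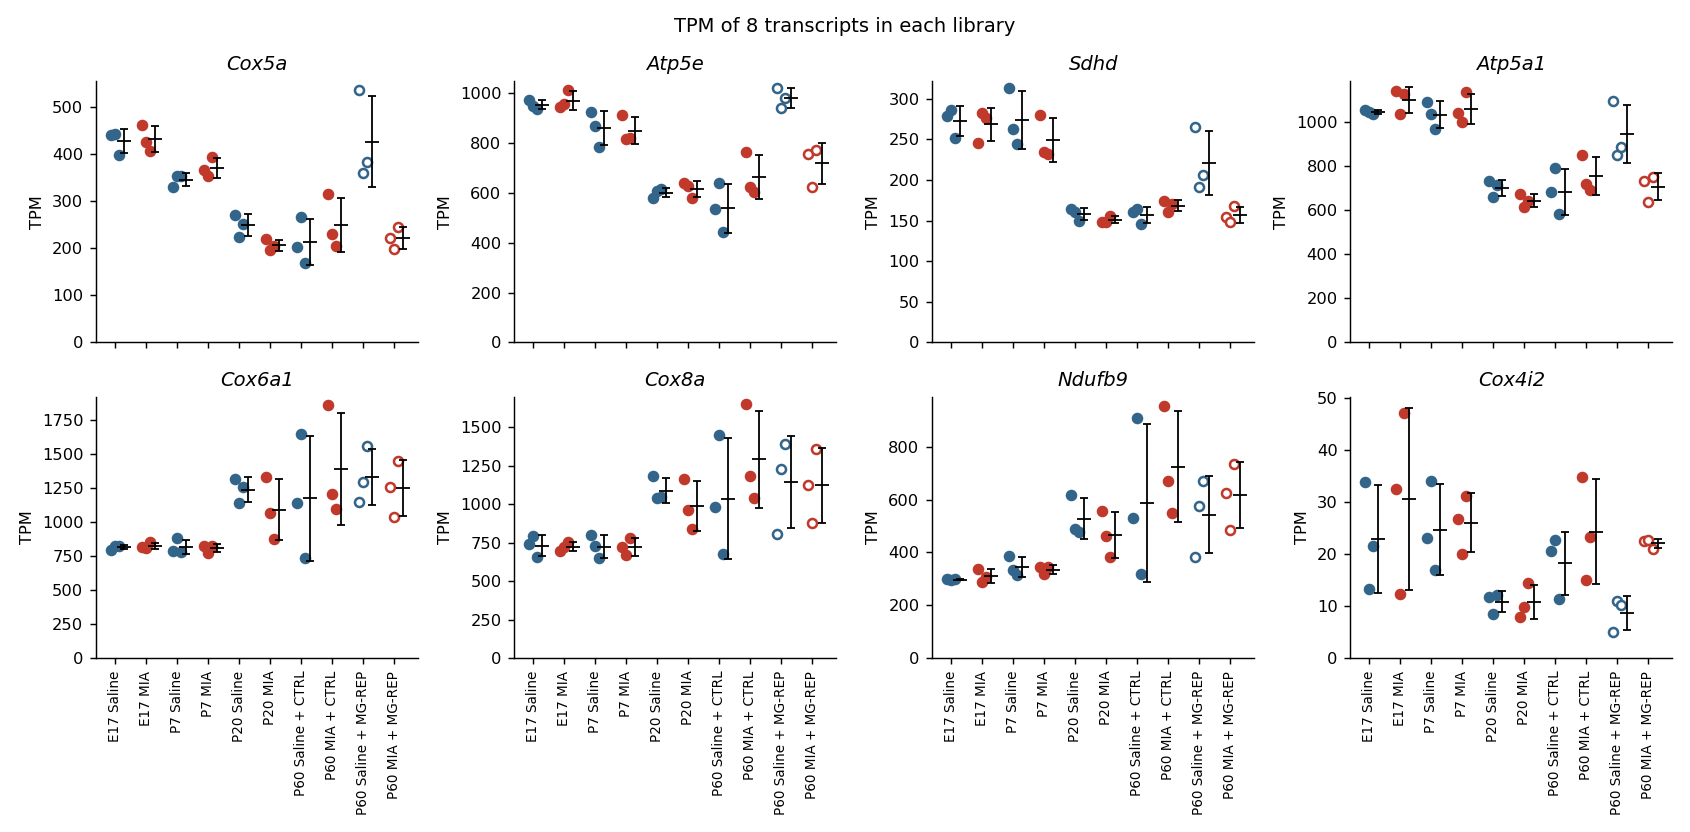
TPM of 8 genes in each library by group (blue Saline, red MIA, open dots MG-REP; bars are the mean ± SD, n = 3). Cox5a and Atp5e are higher in all 3 Saline + MG-REP libraries (360.0 to 536 and 940.3 to 1019.9 TPM) than in all Saline + CTRL libraries (169 to 265 and 442 to 639 TPM), while Cox6a1 overlaps between them.

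In complex II, Sdhd rose by 0.48 (adjusted p = 0.00154, limma), from 161, 164 and 146 TPM to 265, 191 and 207 TPM, and Sdhb by 0.41 (adjusted p = 0.000577, limma), from 242, 273 and 229 TPM to 365, 313 and 309 TPM. Sdha had 355, 435 and 319.7 TPM in Saline + CTRL and 356, 375 and 406 TPM in Saline + MG-REP (log2 fold change 0.04, adjusted p = 0.81). In complex III, Uqcrq rose by 0.61 (adjusted p = 0.00556, limma) and Uqcrfs1 by 0.49 (adjusted p = 0.00586, limma), the latter from 164, 219.8 and 133 TPM to 249, 227 and 235 TPM, with an adjusted p of 0.0631 without Saline + CTRL library 3. In the ATP synthase, Atp5a1 rose by 0.47 (adjusted p = 0.0022, limma), from 679.7, 788 and 580.4 TPM to 1094, 849.8 and 887 TPM. Atp5b, with 992, 1258 and 765 TPM and 1592, 1215 and 1269.8 TPM, had overlapping groups and rose by 0.45 (adjusted p = 0.0188, limma), with an adjusted p of 0.154 without Saline + CTRL library 3 and 0.141 without Saline + MG-REP library 1.

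The highest transcripts of complex IV did not pass. Cox6a1 had 1135, 1646 and 733 TPM in Saline + CTRL and 1146, 1295 and 1553 TPM in Saline + MG-REP, with a log2 fold change of 0.25 and a 95% interval from -0.18 to 0.68 (limma adjusted p = 0.43). For Cox8a the value was 0.17 and the interval ran from -0.28 to 0.63 (limma adjusted p = 0.619). Both changed sign in some fits. Cox6a1 had a value of -0.05 without Saline + CTRL library 3, and Cox8a one of -0.10. Cox4i2 had 20.5, 22.7 and 11.4 TPM in Saline + CTRL and 4.93, 10.9 and 10.2 TPM in Saline + MG-REP, without overlap, at a log2 value of -1.0 (adjusted p = 0.0721, limma). Its adjusted p was 0.0379 without Saline + CTRL library 3.

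The comparison of P20 with P7 and that of MG-REP with CTRL in Saline offspring share no library. Of the 23 transcripts lower at P20, 15 were higher in MG-REP, which is 65.2% of the former and 53.6% of the latter list. Over all transcripts these shares were 34.6% and 58.6%. They were Atp5a1, Atp5b, Atp5d, Atp5e, Atp5l and Atp5o of the ATP synthase, Sdhb and Sdhd of complex II, Uqcrb and Uqcrfs1 of complex III, Cox5a of complex IV, and Ndufa2, Ndufa10, Ndufb7 and Ndufc1 of complex I. The changes of 56 of the 81 transcripts (69.1%) had opposite signs in the 2 comparisons, against 62.1% of all transcripts, and the Pearson correlation was -0.08 over the 81 and -0.37 over all transcripts, as a description across genes, which are not independent replicates.

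**Figure D5:**
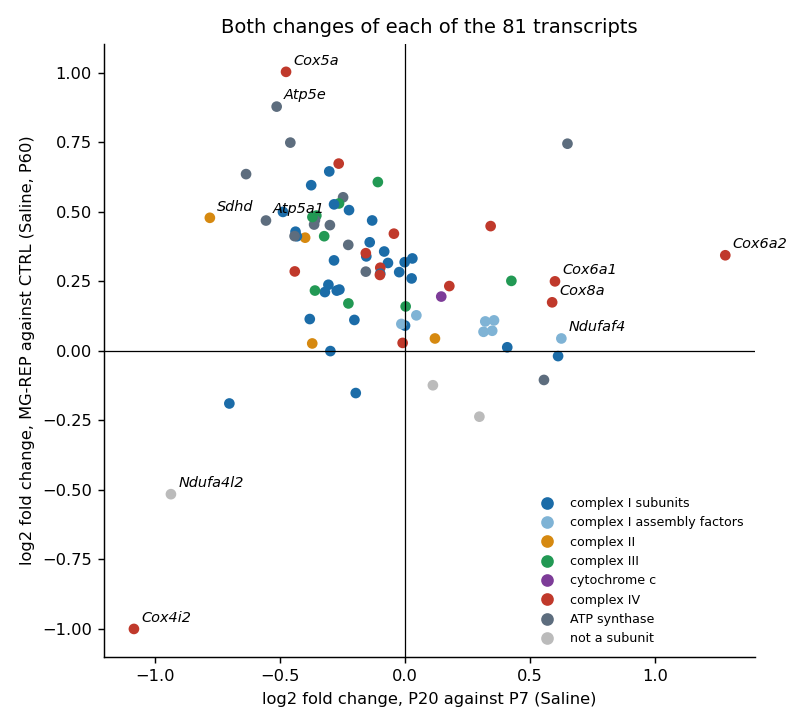
Log2 fold change of the 81 transcripts at P20 against P7 in Saline offspring (horizontal) and in Saline + MG-REP against Saline + CTRL (vertical), by complex. The 2 comparisons share no library. The upper left holds Cox5a (-0.48 and 1.00), Atp5e (-0.51 and 0.88) and Sdhd (-0.78 and 0.48).

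The difference between the MG-REP changes of MIA and Saline offspring was tested in the same fit. It was lower in MIA offspring for 19 of the 81 transcripts, where it was lower for 6.09% of all transcripts, and higher for 0, where it was higher for 4.42%. The 5 largest differences on the log2 scale were -1.15 for Cox5a (SE 0.22, adjusted p = 0.000878, limma), -0.84 for Cox7b (adjusted p = 0.00184), -0.84 for Atp5l (adjusted p = 0.0118), -0.76 for Atp5e (adjusted p = 0.00207) and -0.75 for Uqcrq (adjusted p = 0.032). By role the 19 were 6 subunits of complex I, 2 of complex II, 4 of complex III, 2 of complex IV and 5 of the ATP synthase. Uqcrq lost its call without any of 6 of the 12 libraries (adjusted p 0.0577 to 0.112). For Sdhd the difference was -0.58 (adjusted p = 0.0144, limma, or 0.0566 without Saline + MG-REP library 1), and for Cox6a1, which did not pass, it was -0.38 (adjusted p = 0.524). With only the groups compared the count was 3, and with the replicate number as a block it was 13. It was 33 without Saline + CTRL library 2, 9 without Saline + CTRL library 3, MIA + CTRL library 1 or MIA + MG-REP library 2, and 11 without Saline + MG-REP library 1.

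Between the repopulated groups, 23 of the 81 transcripts were lower in MIA + MG-REP than in Saline + MG-REP, where 11% of all transcripts were lower, and 1 was higher, where 10.9% were. The median log2 difference was -0.24 over the 81 and 0.12 over all transcripts. Lower were 9 subunits of complex I, 2 of complex II, 3 of complex III, 3 of complex IV and 6 of the ATP synthase. Cox5a was lower by a log2 difference of -0.92 (SE 0.15, adjusted p = 9.38e-05, limma), and its 3 MIA + MG-REP libraries, at 222, 199 and 244 TPM, all lay under those of Saline + MG-REP. Cox7b had a difference of -0.66 (adjusted p = 0.000273), Uqcrq one of -0.55 (adjusted p = 0.014), Ndufb6 one of -0.49 (adjusted p = 0.0236) and Ndufa1 one of -0.48 (adjusted p = 0.00861, all limma). Without MIA + MG-REP library 2 the last 3 of these did not pass (adjusted p 0.0825 to 0.162), nor did Uqcrq and Ndufb6 without Saline + MG-REP library 1 (adjusted p 0.107 and 0.146). Cox4i2 alone was higher, with 4.93, 10.9 and 10.2 TPM in Saline + MG-REP and 22.4, 22.6 and 21.0 TPM in MIA + MG-REP, a difference of 1.32 (SE 0.41, adjusted p = 0.0214, limma). Its adjusted p was 0.163 without Saline + MG-REP library 1, 0.0587 without MIA + MG-REP library 1 and 0.0604 without MIA + MG-REP library 2. The lower count was 10 without Saline + MG-REP library 1 and 8 without MIA + MG-REP library 2.

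Cell markers and sex differed between these P60 groups as well. The mitotic markers summed to 21.6 to 31.0 TPM in Saline + CTRL, 422 to 1218 TPM in Saline + MG-REP and 23.5 to 23.9 TPM in MIA + MG-REP. The 7 microglial markers summed to 35292 to 51118, 24895 to 28374 and 39389 to 43866 TPM in these 3 groups. Border macrophage markers summed to 329 to 435, 595 to 1183 and 193 to 295 TPM, and endothelial markers to 536 to 882, 186 to 403 and 572 to 749 TPM. Their part in the differences was not tested. Xist was over 50 TPM in 1 of 3 Saline + CTRL libraries and in 3 of 3 libraries of each MG-REP group, and a fit with a term for log2 Xist gave 10 higher transcripts in Saline + MG-REP in place of 28.

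Other genes of mitochondrial function and of energy metabolism were read from lists drawn up by hand. In Saline + MG-REP against Saline + CTRL, 29 of 74 mitochondrial ribosomal proteins were higher and 0 lower, and 9 of 15 proteins of mitochondrial import, carriers and chaperones were higher and 0 lower. Of 17 transcripts of the TCA cycle and pyruvate dehydrogenase, 3 were higher, and of 20 of glycolysis, 8 were higher, with 0 lower in both. Of 75 cytosolic ribosomal proteins, 49 were higher and 1 lower. The share of all transcripts was 11.9% higher and 14.9% lower in this comparison. Between P7 and P20 in Saline offspring, 34 of the 74 mitochondrial and 48 of the 75 cytosolic ribosomal proteins were lower and 1 and 2 higher. Over that step 5 of 17 TCA cycle transcripts were lower and 1 higher, and 4 of 20 glycolysis transcripts lower and 7 higher, where 20.1% of all transcripts were lower and 16.1% higher.

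Of 13 regulators of mitochondrial biogenesis, 5 were lower and 3 higher at P20 than at P7 in Saline offspring. Ppargc1b, a coactivator of respiratory gene transcription, fell by 0.86 on the log2 scale (adjusted p = 0.000444, limma). Gabpa, which binds the ETS letters, fell by 0.35 (adjusted p = 0.0143, limma), and Tfam, which packages and transcribes mitochondrial DNA, fell by 0.32 (adjusted p = 0.0183, limma). Polg2, an accessory subunit of the mitochondrial DNA polymerase, fell by 1.16, and Peo1, the helicase Twinkle, by 0.45 (limma adjusted p 0.00267 and 0.0106). Polrmt, the mitochondrial RNA polymerase, rose by 0.55, Tefm, its elongation factor, by 0.47 and Polg, the DNA polymerase, by 0.45 (limma adjusted p 0.00216, 0.0159 and 0.019). After repopulation in Saline offspring 0 of the 13 were higher and 2 lower, where 14.9% of all transcripts were lower. These were Peo1, which fell by 0.53 (adjusted p = 0.00413, limma), and Esrra, an orphan nuclear receptor that acts with these coactivators, which fell by 0.36 (adjusted p = 0.00254, limma).

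Transcript length was set beside the MG-REP change, since the 81 transcripts are short, with a median of 838 bases against 2872 over all transcripts with a known length. Among transcripts under 1 kb, the median log2 fold change in Saline offspring was 0.34 for 49 of the 81 and 0.03 for the 1013 others. Among those of 1 kb or over it was 0.14 for the other 32 and -0.16 for the 12911 others. In both classes the 81 lay above the others, and they lay below them at P20 against P7 in MIA offspring, with -0.32 against -0.21 and -0.28 against -0.08. In Saline offspring at that step the medians under 1 kb were -0.16 and -0.15.

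The modules that the authors formed by clustering these same libraries placed 34 of the 81 transcripts in the immature module (42.0%, against 32.9% of all transcripts) and 24 in the module of repopulated adult microglia (29.6%, against 7.97%). The adult module held 17 (21.0%, against 23.0%), and the juvenile module and the module of immature MIA microglia 3 each (3.7%, against 16.3% and 19.8%). Because the modules were made from these values, the shares are a description and no independent support.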

How the data were processed

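The authors isolated CD11b+ cells with magnetic beads, sequenced their polyadenylated RNA without strand, aligned to mm10 and counted with featureCounts. The deposited values are TPM of 14225 transcripts, and the formula behind the TPM and the transcript lengths used are not given in the sources used here. Because the authors deposited TPM and not counts, their count test could not be used. Groups were taken from the labels.

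In R 4.3.3, limma 3.58.1 was fitted to log2(TPM + 1) over all 30 libraries with 10 groups, contrasts between them and a mean-variance trend. Tests were two-sided, with Benjamini-Hochberg adjustment over 14225 transcripts and a threshold of 0.05. Fold changes on this scale understate those of low transcripts. The fit was also run on simulated data with independent noise and the same spread in every group. Such data lack the shared deviations and the unequal spread of these libraries, so no conclusion on the calls is drawn from them. Depth was estimated from the spacing of low TPM (in each library 71.5% to 77.3% of low values were within 0.2 of a whole number of reads, where chance gives 40%).

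The members, gene lists and tests were chosen with earlier results of these data known. Named were, per comparison, the 5 largest called rises and falls, every called transcript of a direction with 5 or fewer, the 5 highest and lowest levels, and a fixed set covering each complex and the known isoforms. The extra members named beside them, and the transcripts shared between comparisons, were chosen after their values were seen. Same-numbered Saline and MIA libraries deviated together at P20 (correlations of 0.24, 0.10 and 0.13) but not in every pair at the other ages, so blocked values are given where they change a count. The labels name no sex, litter or batch, and p-values measure the spread between libraries. Coordinates and promoters are those of RefSeq on GRCm38.p6. The alternatives were median-ratio scaling, quantile normalization, a pseudocount of 0.1, a filter at a mean TPM of 1, replicate number as a block, fits without the groups not compared, a log2 Xist term for the MG-REP comparisons, and leaving out each library. Python 3.11.15 and matplotlib 3.10.9 drew the figures. Some items are not reported here.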

Additional observations from a re-analysis of the deposited data

Results flagged for a closer look

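The change after repopulation differed between MIA and Saline offspring for 19 of the 81 transcripts, by the test of the difference itself in the limma fit (Benjamini-Hochberg over all transcripts). The count was 3 with only the groups compared, 13 with the replicate number as a block, and 9 without Saline + CTRL library 3, MIA + CTRL library 1 or MIA + MG-REP library 2. The 5 largest differences on the log2 scale were -1.15 for Cox5a, -0.84 for Cox7b, -0.84 for Atp5l, -0.76 for Atp5e and -0.75 for Uqcrq. All 5 had a positive change in Saline and a smaller or negative one in MIA offspring. Uqcrq was the least firm of them, with an adjusted p of 0.0575 with the replicate number as a block and of 0.112 without Saline + CTRL library 3. Each of these differences rests on all the P60 groups, the CTRL groups included. Between MIA + CTRL and Saline + CTRL the log2 differences were 0.23 for Cox5a, 0.18 for Cox7b and 0.41 for Atp5l. They were 0.31 for Atp5e and 0.20 for Uqcrq, and none passed the adjusted test. The Saline + MG-REP libraries held more mitotic and fewer microglial marker TPM than those of the other P60 groups, and the part of those cells was not tested.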

How the results depend on the processing

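Over 106 results on single genes and 1369 refits, 1166 kept direction and call, 185 kept the direction and lost the call, 12 gained a call, and 6 changed sign. The sign changes, on the log2 scale, were those of Cox6a1 in Saline MG-REP against CTRL (-0.0092 with the Xist covariate, and -0.050 to 0.53 with a library left out), of Cox8a there (-0.017 under quantile normalization, -0.014 with the Xist covariate, and -0.10 to 0.45 with a library left out) and of Cox5a in MIA MG-REP against CTRL (-0.28 to 0.030 with a library left out). None of these had passed the test. A pseudocount of 0.1 and a filter at a mean TPM of 1 changed no call of these 106.

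Counts of called transcripts that moved by over 1.5 times were these. Under median-ratio scaling, 6 were higher in MIA P20 against P7, 13 lower in MIA P60 against E17 and 44 higher in Saline MG-REP against CTRL. Under quantile normalization, 8 were higher in Saline P60 against E17, 6 in MIA P20 against P7, 12 in MIA P60 against P20 and 16 in MIA P60 against E17, with 14 lower there and 14 lower in MIA against Saline MG-REP. With only the groups compared, 19 were lower in Saline P60 against E17, 6 higher in MIA P20 against P7, 3 higher in MIA P60 against P20, 13 lower in MIA P60 against E17, 6 higher in Saline MG-REP against CTRL, 3 lower in the difference of the MG-REP changes, and 13 lower and 2 higher in MIA against Saline MG-REP. The Xist covariate left 10 higher and 1 lower in Saline MG-REP against CTRL. The cause was not tested.

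With a library left out, higher and lower counts ranged, in Saline offspring, from 0 to 2 and 0 to 1 (P7 against E17), 1 to 5 and 14 to 23 (P20 against P7), 0 to 1 and 0 to 1 (P60 against P20) and 3 to 10 and 18 to 38 (P60 against E17). In MIA offspring they ranged from 0 to 0 and 0 to 1, 2 to 3 and 28 to 34, 0 to 7 and 0 to 0, and 5 to 11 and 15 to 29 for the same steps. They ranged from 14 to 39 and 0 to 1 in Saline MG-REP against CTRL, 0 to 0 and 9 to 33 for the difference of the MG-REP changes, and 0 to 1 and 8 to 24 for MIA against Saline MG-REP. The 1 lower in MIA P7 against E17 came without E17 MIA library 2, the 2 and 1 in Saline P7 against E17 without P7 Saline library 3, and those of Saline P60 against P20 without Saline + CTRL library 3 (higher) or 1 (lower).

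Of 27 pairs of libraries with the same number at an age, 12 had a correlation of deviations over 0.1 (range -0.53 to 0.66), and in 12 of 27 comparisons a library correlated best with its own number. At P20 all 3 Saline and MIA pairs were over 0.1, and at E17, P7 and P60 some pairs were not. With the replicate number as a block, 23 were higher in Saline MG-REP against CTRL, 13 lower in the difference of the MG-REP changes and 19 lower in MIA against Saline MG-REP. The block moved the higher count to 3 in Saline P20 against P7, to 1 in MIA P60 against P20 and to 1 in Saline P7 against E17, and the lower count to 1 in Saline P60 against P20. Scaling moved the median over all transcripts from -0.11 to -0.0074 in MIA P60 against E17 (median-ratio). Transcripts of a few TPM rest on few reads, which limits their tests.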
